A study of Mus musculus with 6 samples.

Results

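The genes described here were 7 organic ion transporters of the proximal tubule, Slc22a6, Slc22a8, Slc22a7, Slc22a12, Slc22a30, Slco1a1 and Slc13a3, chosen by name from the 31053 genes of the kidney count table. All 7 had UMIs in each of the 3 kidney libraries. A UMI (unique molecular identifier) is a barcode that marks 1 captured RNA molecule, so that its amplified copies count once. The study compared a microfluidic platform for breaking tissue into single cells with a conventional digest, on mouse kidney and on MMTV-PyMT mammary tumor, by droplet single-cell RNA sequencing. The tumors came from MMTV-PyMT mice of 10 weeks (female, per the study's methods).

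The kidneys came from C57BL/6 mice, an inbred strain, of 12 weeks (male, per the study's methods), and no allele or drug treatment differed between the groups. Minced tissue was digested with type I collagenase in all 3 groups. The control was a 60 min digest, and the platform libraries were cells collected from the digestion device at the 15 min and then the 60 min interval and passed once through a dissociation and filter device. Sorting had removed cells that took up a dye for dead cells. The study's reporting summary states that tissue for all conditions of a replicate was taken from 1 mouse. Each condition was a single library, and differences between conditions are therefore given without a test or a check against replicates. The intervals in brackets are exact 95% intervals that cover counting error only.

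The control, 15 min and 60 min libraries held 8233, 12082 and 13719 cells with 69691783, 116998401 and 112969440 UMIs. Cells with 200 to 3000 genes and at most 50% mitochondrial UMIs were kept, which left 5886, 8390 and 9936 cells. Some cell barcodes occurred in more than 1 library, 53 in the control and the 15 min library, 93 in the control and the 60 min library and 211 in both platform libraries.

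Tubule cells of the kidney take organic anions, urate and dicarboxylates out of the blood or the forming urine and pass them across the cell, and this is how many drugs and toxins are cleared. Basolateral carriers of the SLC22 family bring substrates in from the blood, carriers on the apical brush border exchange them with the urine, and uptake by the anion exchangers is coupled to a dicarboxylate gradient that NaDC3 helps to keep. The proximal tubule is the main site of this transport in the kidney, and its segments S1, S2 and S3 follow each other from the glomerulus onwards.

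Slc22a6 and Slc22a8 encode OAT1 and OAT3, the basolateral organic anion exchangers, and lie next to each other on chromosome 19. In GRCm38.p6, the patch release of mm10 used here for positions, Slc22a6 (ENSMUSG00000024650) was annotated at chr19:8617996-8628299 and Slc22a8 (ENSMUSG00000063796) at chr19:8591254-8611835. The same chromosome holds Slc22a12 (ENSMUSG00000061742, chr19:6535854-6543070), which encodes the apical urate exchanger URAT1, and Slc22a30 (ENSMUSG00000052562, chr19:8335371-8405111), another gene of the SLC22 family. Slc22a7 (ENSMUSG00000067144, chr17:46432185-46438477) encodes the anion carrier OAT2. Slco1a1 (ENSMUSG00000041698, chr6:141907281-141946962) encodes an organic anion transporting polypeptide, and Slc13a3 (ENSMUSG00000018459, chr2:165405295-165473197) encodes NaDC3, the basolateral sodium-coupled dicarboxylate carrier.

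Cells were assigned to classes from marker genes that did not include any of the 7 transporters. A proximal tubule-gated cell held at least 3 UMIs over at least 2 of Slc34a1, Lrp2, Cubn, Slc27a2, Slc5a12, Slc5a2, Slc7a13 and Cyp7b1, and these made up at least 75% of its UMIs over 9 class lists. This gave 2705, 7121 and 2754 proximal tubule-gated cells in the control, 15 min and 60 min libraries, which were 46.0, 84.9 and 27.7% of the kept cells. Their median depth was 6165, 7252 and 6382.5 UMIs and their median mitochondrial share 12.3, 21.8 and 16.4%. Of the 24212 kept cells, 599 had 70 to 80% of their marker UMIs in their leading list, close to the limit, and 2495 entered no class.

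The transporter UMIs lay in the cells gated as proximal tubule. Over the 3 libraries together, proximal tubule-gated cells held 97.3% of the 196869 UMIs of the 7 transporters in kept cells (191573 UMIs, interval 97.2 to 97.4%), cells of no class held 1.75% and cells of the 8 other classes 0.940%. The 15 min library supplied 135544 of the 196869 UMIs. By library the share was 94.9, 99.1 and 91.7% in the control, 15 min and 60 min libraries. Of the UMIs of all genes in kept cells, proximal tubule-gated cells held 18159554 of 33644880, 55939966 of 61434200 and 18504169 of 52338873. By gene the pooled share in proximal tubule-gated cells ran from 95.1% for Slc13a3 to 98.0% for Slco1a1. Pooled over the libraries, Slc13a3 had 2.70% of its UMIs in the other classes [2.44 to 2.99%] and each of the other 6 genes had between 0.688 and 1.21%. By library Slc13a3 had 91.7, 99.0 and 86.6% of its UMIs in proximal tubule-gated cells and 4.23, 0.344 and 8.44% in the other classes. At 60 min the other 6 genes had between 3.01 and 4.26% in the other classes.

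Levels were expressed as UMIs of a gene per 1000000 UMIs of the cells it was summed over (CPM). They are compared between libraries and cell groups, and not between genes, because 3′ UMI counts also depend on the transcript. In endothelial-gated cells, which are not known as a main site of these carriers in the kidney, Slc22a6 stood at 9.97 CPM in the control [6.32 to 15.0], 22.7 CPM at 15 min and 11.2 CPM at 60 min, which was 2.003, 2.91 and 2.51% of its level in proximal tubule-gated cells of the same library. Slc22a12 stood there at 2.06, 2.05 and 2.58% and Slc13a3 at 4.15, 4.42 and 4.29% of the proximal tubule level. Over the 7 genes the endothelial value was between 1.27 and 5.07% of the proximal tubule value, except for Slc22a7 in the control, of which 0 UMIs were found among 2306636, a floor of 1.30 CPM at 3 counts. The share differed between genes, at 60 min from 2.51% [2.05 to 3.04%] for Slc22a6 to 5.07% [3.35 to 7.37%] for Slc22a7. The endothelial values are used as a comparison level, under which no signal is read. Their source was not tested.

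**Figure D1:**
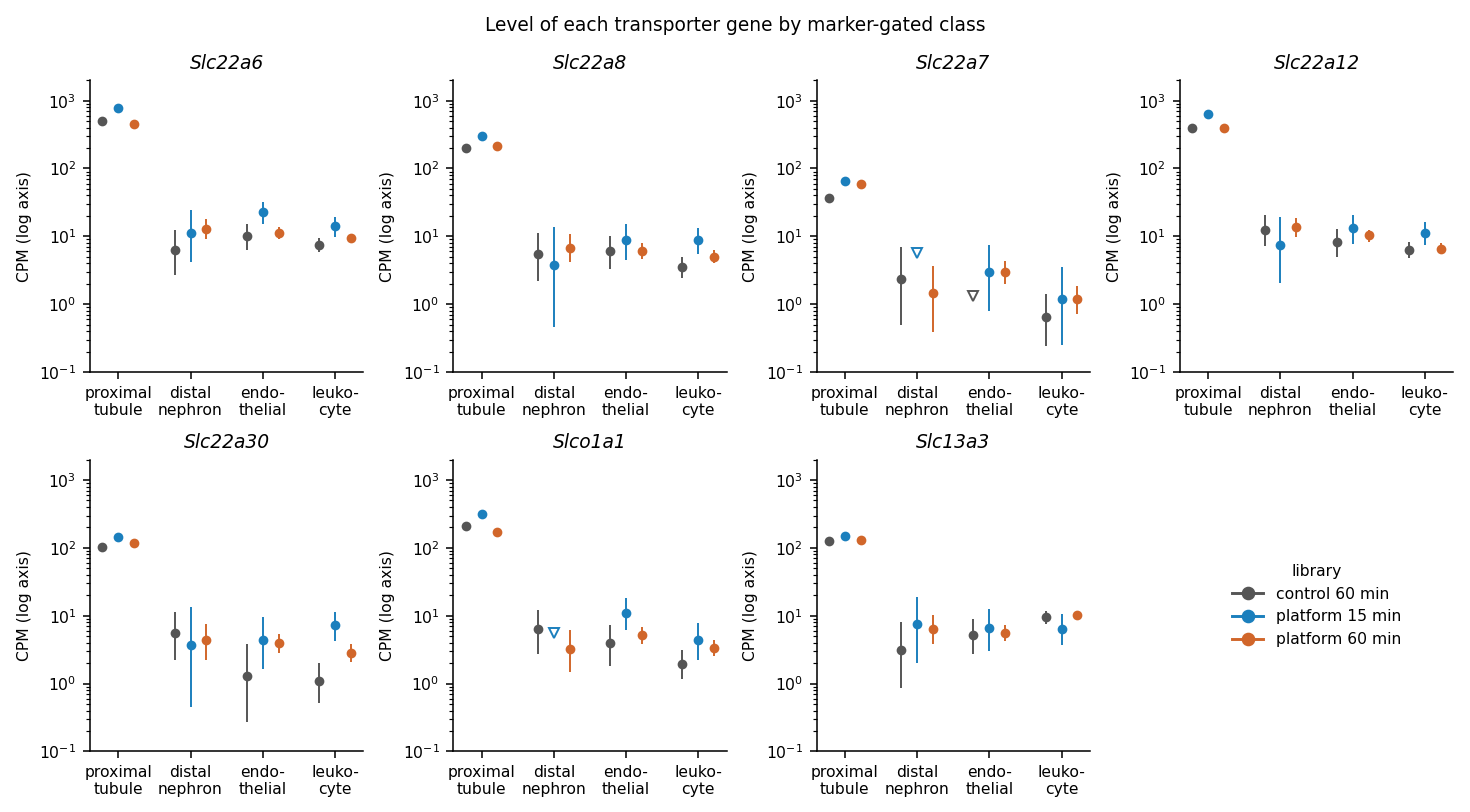
CPM of each transporter on a log axis in proximal tubule-gated, pooled distal nephron-gated (4 classes), endothelial-gated and leukocyte-gated cells of the 3 kidney libraries, with exact 95% Poisson intervals for counting error, and with open triangles at the floor of 3 counts where no UMI was found. The proximal tubule points lie far above those of the other classes, as for Slc22a6 at 498, 780.1 and 446 CPM against 9.97, 22.7 and 11.2 CPM in endothelial-gated cells.

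The 7 genes differed in where along the proximal tubule they were found. Segments were gated on genes other than the transporters, Slc5a2, Slc5a12, Slc7a7, Slc7a8 and Adra1a for S1 and Slc7a13, Cyp7b1, Atp11a, Aadat and Slc5a10 for S3. Of the 12580 proximal tubule-gated cells, 9638 had at least 4 UMIs of these lists. S1-gated cells held at least 90% of them in the S1 list, S3-gated cells at least 90% in the S3 list, and cells between were called mixed. S2 was not gated, since genes usually used to mark it are among the transporters. S2 cells may therefore lie in any of these groups, and a level in S3-gated cells is not that of the S3 segment alone. The study's own clusters also joined S2 with S3. The S3 share of 1395 cells lay within 5 percentage points of a limit, so that the S1-gated, mixed and S3-gated groups are ranges of a continuous score and not cell types. S1-gated cells were 14.8, 23.6 and 28.1% and S3-gated cells 29.9, 39.7 and 22.6% of the proximal tubule-gated cells of the control, 15 min and 60 min libraries.

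Slco1a1 and Slc22a7 had few UMIs in S1-gated cells and were highest in S3-gated cells. In S3-gated cells Slco1a1 stood at 439.8 CPM in the control, 576 CPM at 15 min and 499 CPM at 60 min, against 0.334, 2.74 and 1.39 CPM in S1-gated cells, where 1, 34 and 8 UMIs were counted. These S1 values were below the endothelial level of the same library, which was 3.90, 11.0 and 5.11 CPM, and no signal is read from them. The S3 over S1 ratio of the counted values was 1317 [236 to 52043] in the control, 211 [151 to 304] at 15 min and 358 [181 to 829] at 60 min, with the width of the first set by its single S1 UMI. As its denominator is below the endothelial level, this ratio does not give the size of the difference between the segments.

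Slc22a7, the gene of OAT2, stood at 84.7, 123 and 190.4 CPM in S3-gated cells and had 2, 7 and 2 UMIs in S1-gated cells, or 0.668, 0.564 and 0.349 CPM. In endothelial-gated cells it had 0 UMIs in the control and 2.93 and 2.98 CPM at 15 and 60 min, so that its S1 values in the platform libraries were also below that level. In the control its S1 value was under the floor of 3 counts and close to the 0.656 CPM of leukocyte-gated cells. The S3 over S1 ratio of its counted values, which has the same limit as that of Slco1a1, was 127 [35.0 to 1050], 218 [106 to 544] and 546 [151 to 4513] in the control, 15 min and 60 min libraries. In mixed cells it was at 5.95, 23.4 and 12.3 CPM, far below S3-gated cells in each library. The same gap was smaller for Slco1a1, which had 83.6, 149.9 and 84.0 CPM in mixed cells and an S3 over mixed ratio of 5.26, 3.85 and 5.94.

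Slc22a6 and Slc22a12 were present in S1-gated cells and several-fold higher in S3-gated cells. Slc22a6 stood at 121, 176 and 129 CPM in S1-gated cells, 518, 805 and 496 CPM in mixed cells and 758, 1096 and 808 CPM in S3-gated cells. Its S3 over S1 ratio was nearly the same in the 3 libraries, 6.25 [5.62 to 6.97], 6.21 [5.94 to 6.49] and 6.27 [5.797 to 6.79]. The urate exchanger gene Slc22a12 stood at 153, 244 and 185 CPM in S1-gated and 567, 878 and 709 CPM in S3-gated cells, with ratios of 3.71 [3.36 to 4.09], 3.60 [3.47 to 3.74] and 3.83 [3.58 to 4.10].

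Slc22a30 and Slc13a3 had shallower courses. Of the 50-base stretches in the last 500 bases of the Slc22a30 transcripts, 29 of 954 were also in transcripts of its paralog Slc22a28, so that a small part of its reads may not be told apart, and the other 6 genes had 0 such stretches. The ratio of S3-gated over S1-gated cells was 3.16 [2.67 to 3.77], 3.11 [2.89 to 3.35] and 2.76 [2.47 to 3.09] for Slc22a30 and 2.68 [2.30 to 3.14], 2.46 [2.29 to 2.65] and 3.56 [3.13 to 4.05] for Slc13a3. In mixed cells the dicarboxylate carrier gene was already near its S3-gated level, at 151, 184 and 167 CPM against 168, 175 and 196 CPM. At 15 min the mixed and S3-gated values of Slc13a3 did not differ beyond counting error, with a ratio of S3-gated over mixed cells of 0.953 [0.906 to 1.00].

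Slc22a8, the gene of OAT3, ran the other way from its neighbour Slc22a6. It was lower in S3-gated than in S1-gated cells in each library, at 156, 219 and 143 CPM against 210.0, 337 and 212 CPM, with ratios of 0.744 [0.674 to 0.823], 0.652 [0.626 to 0.678] and 0.672 [0.613 to 0.737]. Its highest level was in mixed cells, at 289, 444 and 308 CPM. It was the 1 transporter of the 7 whose mean over the 3 libraries was not highest in S3-gated cells. How many of all genes were highest in S3-gated cells was not counted.

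In finer steps the peak of Slc22a8 lay in the middle of the range. Cells were placed in 5 bins by the S3 share of their segment UMIs, at 0, over 0 to 25, over 25 to 75, over 75 and under 100, and 100%. Along these bins the control had 185, 252, 311, 280.1 and 147 CPM of Slc22a8, and the 15 min library 322, 391, 496, 318 and 209.8 CPM. The 60 min library had 197, 252, 373, 229 and 135 CPM, so that the middle bin was the highest in all 3 libraries. Slc22a6 instead peaked in the fourth bin, at 94.0, 268, 549, 898.5 and 728 CPM in the control, and in the other 2 libraries this bin was also the highest. Slco1a1 stayed under 10 CPM in the first 2 bins of each library and reached 51.0, 403 and 429 CPM in the last 3 bins of the control. Slc22a7 was also near 0 in the first 2 bins of each library. In the last 3 bins it stood at 4.80, 73.2 and 79.2 CPM in the control. The same bins had 20.1, 88.6 and 126 CPM at 15 min and 12.7, 103 and 196 CPM at 60 min.

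**Figure D2:**
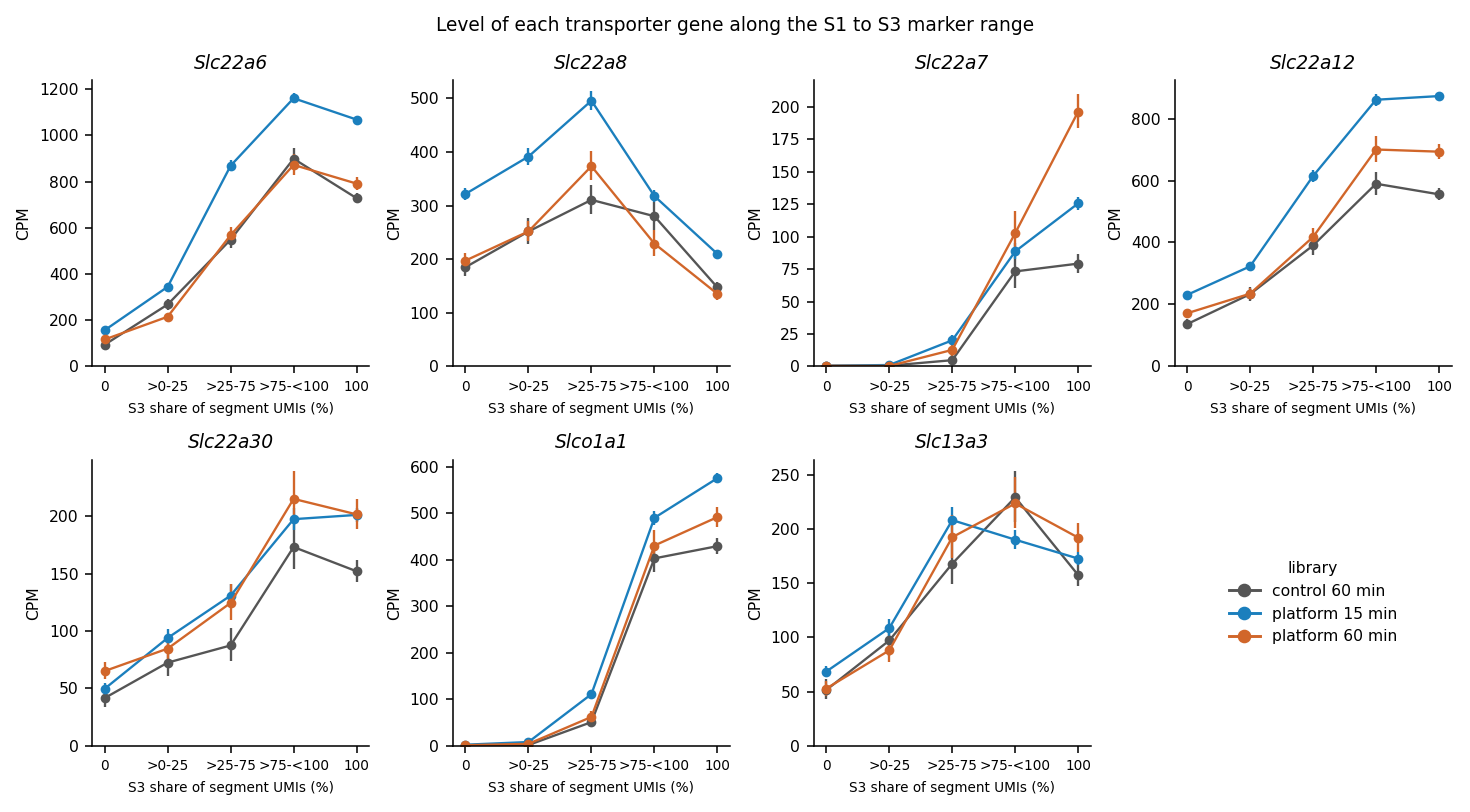
CPM of each transporter over 5 bins of the S3 share of segment marker UMIs, for the 3 kidney libraries, with exact 95% Poisson intervals for counting error and a separate scale in each panel. Slc22a8 was highest in the middle bin of each library (311, 496 and 373 CPM), whereas Slco1a1 and Slc22a7 were near 0 in the first 2 bins.

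The genes whose course over these bins was most like that of each transporter were found from the Pearson correlation of log2(CPM + 10) over 15 points, the 5 bins of the 3 libraries, among 1582 genes with at least 100 CPM in a bin. The points share libraries and the same ordering of cells, so that the correlations only describe a shape. Slco1a1 was most like Acsm3, an acyl-CoA synthetase gene (r = 0.995), Ghr, the growth hormone receptor gene (0.994), and Cyp2a4 (0.994). Slc22a7 was most like Mep1b, a meprin subunit gene (0.995), Ghr (0.984) and Crot (0.982). Slc22a12 was closest to Ggt1, a brush border glutamyltransferase gene (0.994), Cyp4b1 (0.993) and the organic cation carrier gene Slc22a2 (0.991). Slc22a6 was closest to Cyp4b1 (0.993), Cyp2e1 (0.992) and Kap (0.992). Slc13a3 was closest to Cyp2e1 (0.972), Slc22a6 itself (0.966) and Kap (0.960), and Slc22a30 to Mep1a (0.976), Slc17a3 (0.974) and Rdh16f2 (0.972). The best matches of Slc22a8 were weaker, Enpp6 at 0.817, Fam151a at 0.752 and Ctsz at 0.724.

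Within single cells the transporters were often found together in S3-gated cells. Each cell was thinned to 1500 UMIs so that depth was equal, which left out 136, 71 and 170 shallower proximal tubule-gated cells of the control, 15 min and 60 min libraries. At this depth 94.0, 98.2 and 94.8% of S3-gated cells had a UMI of at least 1 of the 7 genes, against 51.3, 63.6 and 55.4% of S1-gated cells and 4.55, 7.56 and 6.26% of endothelial-gated cells. At least 3 of the 7 were found in 46.7, 63.4 and 51.8% of S3-gated, 26.5, 41.6 and 27.2% of mixed and 3.02, 8.07 and 5.98% of S1-gated cells. In endothelial-gated cells this was 0.189% in the control and 0 of 344 and of 2238 cells at 15 and 60 min.

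Detection of single genes was counted in the same way. Slc22a6 was found in 64.7, 76.2 and 60.8% and Slc22a12 in 55.8, 71.7 and 63.0% of thinned S3-gated cells, against 1.70, 2.62 and 1.79% and 0.758, 2.33 and 1.39% of endothelial-gated cells. Unthinned, when median depths were 6165, 7252 and 6382.5 UMIs in proximal tubule-gated and 4092, 3748 and 3796 UMIs in endothelial-gated cells, Slc22a6 was found in 67.4, 79.4 and 60.5% of the former and 3.77, 6.93 and 3.99% of the latter. Slc22a8 was found in 32.3, 43.8 and 35.0% of mixed, 23.9, 34.9 and 26.0% of S1-gated and 18.0, 24.0 and 16.9% of S3-gated cells, so that mixed cells had the highest share in each library. Slc13a3 was found in 23.5, 21.0 and 22.2% of mixed and 21.5, 21.6 and 26.2% of S3-gated cells.

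**Figure D3:**
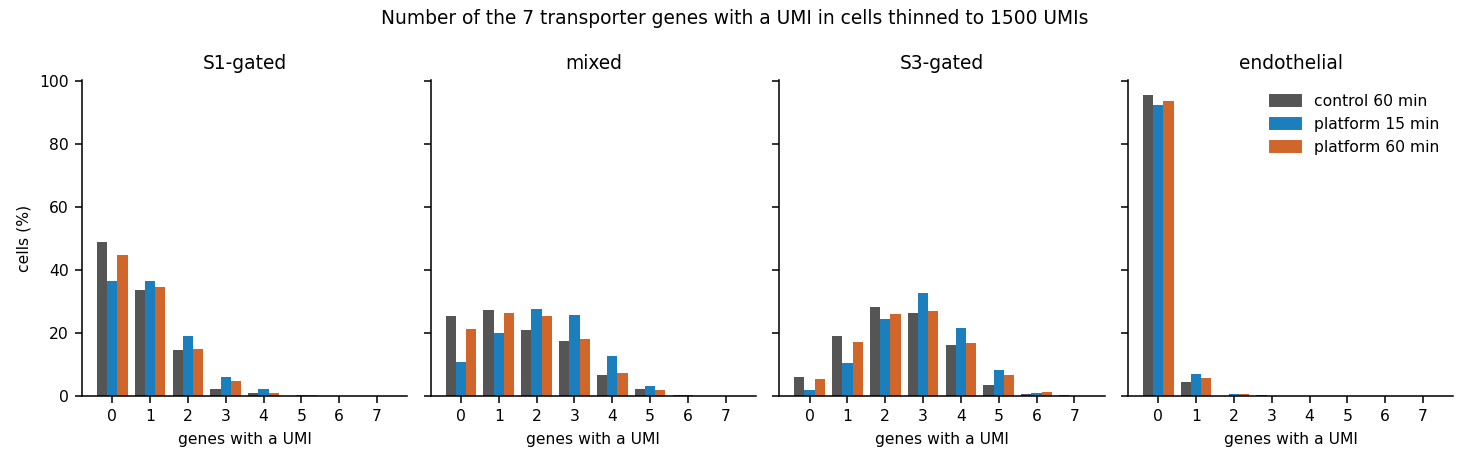
Percent of cells by the number of the 7 transporter genes with a UMI after thinning to 1500 UMIs, in S1-gated, mixed, S3-gated and endothelial-gated cells of the 3 kidney libraries. At least 3 genes were found in 46.7, 63.4 and 51.8% of S3-gated cells of the control, 15 min and 60 min libraries and in 3.02, 8.07 and 5.98% of S1-gated cells.

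The conditions were then compared within proximal tubule-gated cells. Both platform libraries were set against the same control library, so the comparisons are not independent. A gene was called higher at a CPM ratio of at least 1.5 and lower at the inverse, and the same rule over the 6005 genes with a mean of at least 10 CPM in these cells gave the background. At 15 min, 4 of the 7 transporters were called higher, Slc22a6, Slc22a8, Slc22a7 and Slc22a12, and 0 lower, where 2.98% of all genes were called higher and 2.2% lower. With a stricter gate of at least 10 marker UMIs, or with cells thinned, Slc22a6 (1.43 and 1.48) and Slc22a8 (1.42 and 1.48) were under the fold and 2 of the 7 were called. Beside these counts, 1.02 and 3.47% of all genes were called higher. Slc22a8 was also under the fold with cells weighted equally (1.45), at a gate purity of 90% (1.48) and at a mitochondrial share of at most 20% (1.405). The median log2 ratio of the 7 genes was 0.59, while that of all genes tested was -0.23, so that the typical gene was lower in CPM at 15 min and the transporters stood above it by more than their own ratios show.

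Slc22a6 had 498 CPM in the control [487 to 508], 780.1 CPM at 15 min [773 to 787] and 446 CPM at 60 min [436 to 456]. Its level at 15 min was 1.57 times that of the control [1.53 to 1.60], and the 60 min library was below the control at 0.896 [0.869 to 0.923]. With a mitochondrial share of at most 20% its 60 min ratio was above 1, at 1.07. Slc22a12 had 399, 643 and 401 CPM, with ratios of 1.61 [1.57 to 1.65] and 1.00 [0.971 to 1.04]. For both genes the 15 min library was the high one.

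Slc22a8 had 202, 304 and 217 CPM in the control, 15 min and 60 min libraries, with ratios to the control of 1.505 [1.45 to 1.56], an interval on both sides of the 1.5 limit, and 1.07 [1.03 to 1.12]. Slc22a7 had 37.3, 64.7 and 58.8 CPM and was higher in both platform libraries, at 1.73 [1.60 to 1.89] and 1.58 [1.43 to 1.74]. The transporters not called at 15 min were Slco1a1, with 212, 315 and 172 CPM and a ratio of 1.49 [1.44 to 1.54], Slc22a30, with 103, 146 and 118 CPM and 1.43 [1.36 to 1.503], and Slc13a3, with 125, 149 and 131 CPM and 1.19 [1.14 to 1.25]. All 7 ratios at 15 min were above 1, the smallest being that of the dicarboxylate carrier gene.

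At 60 min the picture differed between genes. Of the 7 transporters 1 was called higher, Slc22a7, and 0 lower, against 5.08 and 0.566% of all genes. This call was lost, with ratios between 1.37 and 1.498, in 4 alternative settings (cells weighted equally, no upper limits on genes and mitochondrial share, a mitochondrial share of at most 20% and the gate of at least 10 marker UMIs). In these settings 5.17 to 6.15% of all genes were called higher. The median log2 ratio of the 7 transporters was 0.07 and that of all genes tested was 0.00. The former was -0.016 with the gate of at least 10 marker UMIs and 0.20 at the 20% mitochondrial limit. Slco1a1 was at 0.812 of the control [0.775 to 0.852], Slc22a30 at 1.15 [1.08 to 1.23] and Slc13a3 at 1.05 [0.990 to 1.11].

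The segment shares also differed between the libraries. The 60 min library had relatively fewer S3-gated cells, 22.6% of proximal tubule-gated cells against 29.9% in the control, and more S1-gated cells, 28.1 against 14.8%. Within S3-gated cells Slco1a1 at 60 min was 1.13 times the control [1.08 to 1.196], whereas it was 0.812 in all proximal tubule-gated cells, and Slc22a6 was at 1.07 [1.02 to 1.11], whereas it was 0.896. Cells with few segment UMIs were 39.1, 15.1 and 29.4% of proximal tubule-gated cells in the control, 15 min and 60 min libraries. In these at 60 min Slco1a1 was at 0.586 [0.496 to 0.689] and Slc22a6 at 1.06 [0.980 to 1.14], and in mixed cells Slco1a1 was at 1.005 [0.861 to 1.17]. The part of the segment shares in the pooled ratios was not tested. These ratios within segments were computed after the pooled values had been seen.

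In S3-gated cells at 15 min, Slc22a12 was the 1 transporter of the 7 called higher, at 1.55 [1.496 to 1.60], beside 1.11% of the 5609 genes tested. The others were at 1.45 [1.40 to 1.49] for Slc22a6, 1.45 [1.33 to 1.59] for Slc22a7, 1.40 [1.31 to 1.498] for Slc22a8, 1.31 [1.26 to 1.36] for Slco1a1, 1.28 [1.196 to 1.36] for Slc22a30 and 1.04 [0.975 to 1.11] for Slc13a3. The median log2 ratio over the 7 was 0.49, beside -0.24 for all genes. In S1-gated cells, where 5 of the 7 passed 10 CPM, Slc22a8 at 1.60 [1.47 to 1.75] and Slc22a12 at 1.59 [1.44 to 1.76] were called higher at 15 min, beside 2.27% of 6376 genes, and Slc22a6 was at 1.46, Slc22a30 at 1.30 and Slc13a3 at 1.13. More were called in the remaining cells. In mixed cells 5 of the 7 were called higher at 15 min, Slc22a6 (1.55), Slc22a8 (1.54), Slc22a7 (3.93), Slc22a12 (1.61) and Slco1a1 (1.79), beside 4.04% of 6010 genes. In cells with few segment UMIs 5 were called, Slc22a6 (1.71), Slc22a8 (1.54), Slc22a7 (1.79), Slc22a12 (1.63) and Slc22a30 (1.62), beside 6.15% of 6063 genes.

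At 60 min, Slc22a7 stood out in S3-gated cells. It had 84.7 CPM in the control, 123 CPM at 15 min and 190.4 CPM at 60 min, a ratio to the control of 2.25 [2.03 to 2.49], and was the 1 transporter of the 7 called, beside 2.92% of genes. In mixed cells its ratio was 3.93 [2.55 to 6.37] at 15 min and 2.06 [1.23 to 3.56] at 60 min, on 5.95 CPM in the control. At 60 min it was the 1 transporter of the 7 called higher in mixed cells, beside 4.41% of genes. A gene of the S3 gate, Cyp7b1, an oxysterol hydroxylase gene, also stood high in S3-gated cells at 60 min, at 13.7, 9.15 and 89.1 CPM in the control, 15 min and 60 min libraries, so the S3-gated cells of the libraries differed in more than the transporters. Its part in the Slc22a7 value was not tested. In S1-gated cells 0 of the 5 transporters that passed 10 CPM were called higher at 60 min, beside 8.66% of genes, with Slc22a30 closest at 1.49 [1.24 to 1.81].

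**Figure D4:**
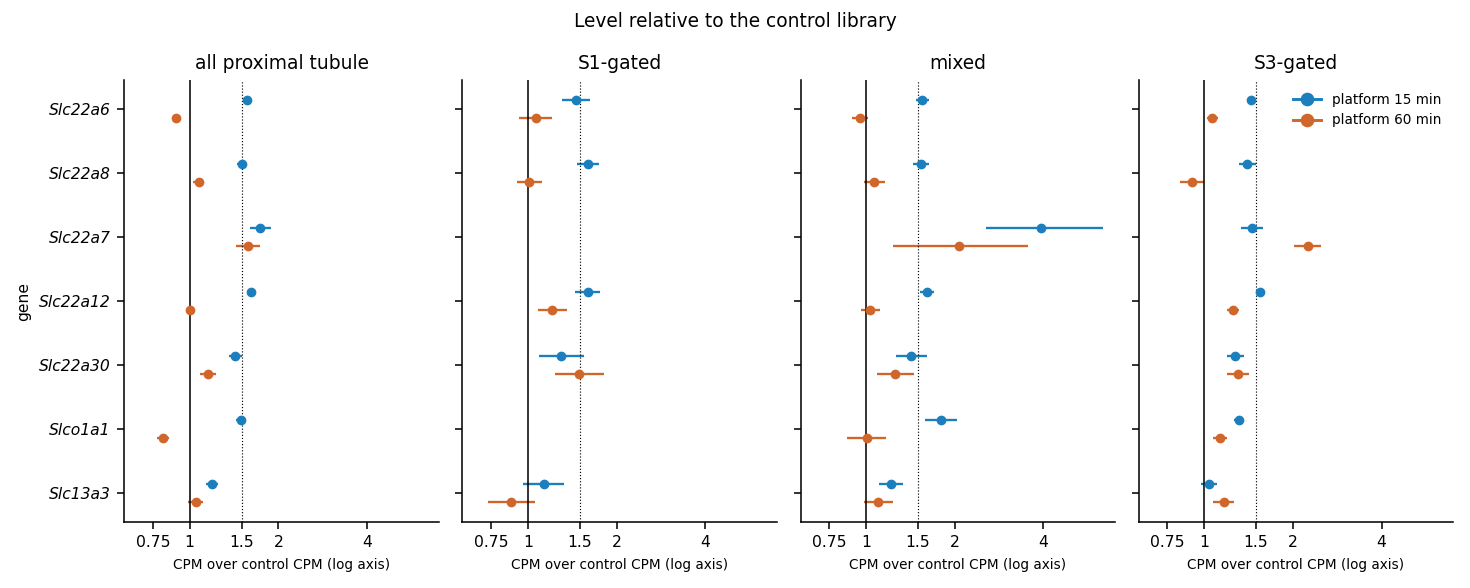
Ratio of CPM to the control library on a log axis for the 15 min and 60 min platform libraries in all proximal tubule-gated, S1-gated, mixed and S3-gated cells, with exact 95% intervals for counting error, a solid line at 1 and a dotted line at 1.5 (Slc22a7 and Slco1a1 are left out of the S1-gated panel for too few UMIs). Slco1a1 at 60 min lies at 0.812 over all proximal tubule-gated cells and at 1.13 in S3-gated cells, and Slc22a7 at 60 min reaches 2.25 in S3-gated cells.

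Several measures moved with the libraries beside the transporters. Proximal tubule genes that are not carriers of organic ions were also higher at 15 min, Slc34a1, a phosphate cotransporter gene of the gate, at 1.60, Napsa at 1.62 and Kap at 1.57, while Gpx3 stood at 1.23, Ass1 at 0.872, Miox at 0.839 and Fxyd2 at 0.722. The summed level of mitochondrial genes in proximal tubule-gated cells was 148507, 226470 and 175830 CPM. The 38 marker genes of the 8 other classes summed to 61.6, 42.2 and 136 CPM in these cells, with UMIs of 36, 33 and 33 of them. The leukocyte list, all 10 of its genes present, summed to 16.0, 6.61 and 37.5 CPM, and Umod, the leading gene of the thick ascending limb list, was at 6.66, 2.503 and 23.0 CPM. Stromal markers were nearly absent, with 2, 0 and 2 of 4 genes found. The part of these differences in the transporter ratios was not tested.

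Over all kept cells the transporter ratios to the control were 1.86 to 2.86 at 15 min and 0.562 to 1.10 at 60 min. There the level of a proximal tubule gene and the proportion of proximal tubule cells, 84.9 and 27.7% against 46.0%, cannot be told apart.

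The transporters were set beside a list of 30 genes, other organic ion carriers and, among the 30, their scaffold gene Pdzk1. Of the list 16 genes, Pdzk1 included, had at least 10 CPM in proximal tubule-gated cells. Of these, 11 had their highest mean level in S3-gated cells and 5 in S1-gated cells, and 5 were over 2-fold higher in S3-gated than in S1-gated cells in all 3 libraries, with 0 the other way. The same counts were not made over all genes, so they have no background here. The median mitochondrial share was 20.2, 27.1 and 19.7% in S1-gated and 15.1, 21.0 and 16.6% in S3-gated cells. Its part in the counts of listed genes was not tested. The largest ratios of S3-gated over S1-gated cells were those of Slco3a1 (6.48, 5.68 and 7.44). Slc22a2, the basolateral cation carrier OCT2, had 4.54, 4.34 and 6.34, and Slc17a3, an apical anion and urate carrier gene, had 4.53, 4.35 and 4.67.

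**Figure D5:**
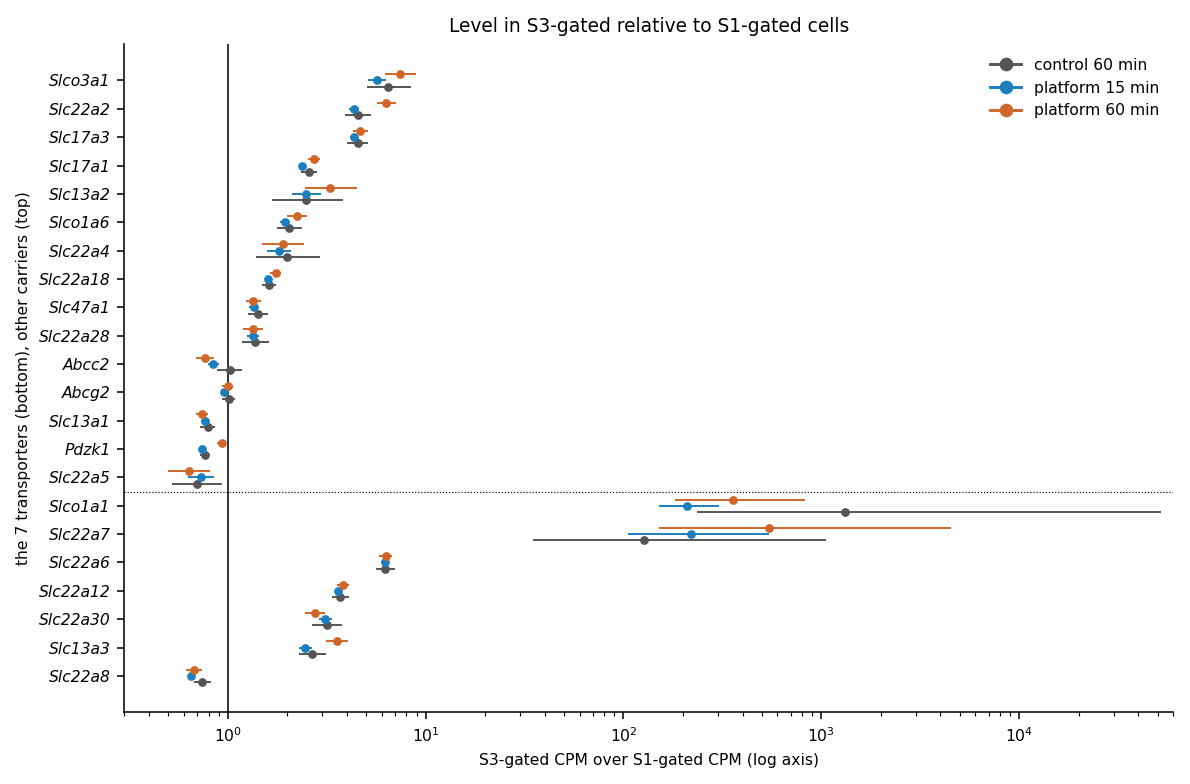
CPM in S3-gated over S1-gated cells on a log axis for the 7 transporters (below the dotted line) and 15 of the 16 listed genes with at least 10 CPM (above it), for the 3 kidney libraries, with exact 95% intervals for counting error and a solid line at 1. Slco1a1 and Slc22a7 lie at ratios of counted values from 127 to 1317, over 1 to 34 UMIs in S1-gated cells, Slc22a6 near 6.25, and Slc22a8 below 1 at 0.744, 0.652 and 0.672.

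At 15 min, 6 of these 16 genes were called higher than the control and 0 lower, and 14 had a ratio above 1, beside the 2.98 and 2.2% of all genes given above. Among the 6 were Slc22a18 (1.77), the organic cation carrier gene Slc22a4 (1.70), Slc17a1, an apical phosphate and urate carrier gene (1.60), Slc22a2 (1.58) and Slc22a28 (1.501). The median log2 ratio of the 16 was 0.51, beside -0.23 for all genes tested. Pdzk1, whose protein tethers apical carriers, was at 0.926. At 60 min, 1 of the 16 was called higher, Abcc2, an apical export pump gene, at 1.58 [1.48 to 1.69], and 15 had a ratio above 1, with a median log2 ratio of 0.20, beside 0.00 for all genes tested. The share of all genes with a ratio above 1 was not counted at either interval. A count of 1 of 16 is near the 5.08% of all genes called higher.

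The 14 listed carriers under 10 CPM rest on fewer UMIs. At 15 min 6 of them were past the fold upward and 1 downward, with 2 of the 6, Slc22a27 and Slc47a2, counted there for 1 UMI against 0 in the control, where of all genes with a UMI and under 10 CPM 19.1% were higher and 26.8% lower by the same count, and at 60 min 8 and 0 were, where 40.6% were higher and 10.8% lower. The background for low genes is therefore large. Slc22a13 stood at 2.37, 4.50 and 8.86 CPM in the control, 15 min and 60 min libraries (ratios 1.90 [1.37 to 2.69] and 3.74 [2.66 to 5.37]) and Slc22a19 at 4.46, 6.88 and 14.5 CPM (1.54 [1.21 to 1.99] and 3.26 [2.53 to 4.23]). Like Slc22a7, both were found mainly in S3-gated cells, at a mean of 14.5 and 23.7 CPM against 0.116 and 0.0850 CPM in S1-gated cells, and were higher in the 60 min library. Abcc4, an export pump gene, had ratios of 1.74 and 2.21. It stood at a mean of 16.8 CPM in S1-gated, 0.997 CPM in S3-gated and 48.1 CPM in endothelial-gated cells, while S1-gated cells made up 14.8, 23.6 and 28.1% of proximal tubule-gated cells and the endothelial markers in these summed to 2.97, 2.70 and 20.05 CPM. Within S1-gated cells its ratios were 1.496 [1.06 to 2.16] and 1.37 [0.936 to 2.03], and the part of either shift was not tested. Slco4c1, Slc22a26, Slc22a29, Abcb1a and Slco2b1, all under 2 CPM in each library, had ratios at 60 min from 1.74 to 13.2, the last for Slco4c1 [3.33 to 115] on 0.110 CPM in the control. Slco2b1 and Abcb1a stood at a mean of 47.9 and 4.80 CPM in leukocyte-gated cells against 1.25 and 0.909 CPM in proximal tubule-gated cells, where the leukocyte markers summed to 16.0, 6.61 and 37.5 CPM in the control, 15 min and 60 min libraries, and the part of leukocyte RNA in their ratios was not tested. Abcb1b was lower at 15 min, at 0.587 [0.406 to 0.857] on 2.59 CPM in the control. It stood at a mean of 31.7 CPM in leukocyte-gated and 2.29 CPM in proximal tubule-gated cells, and the part of leukocyte RNA in its ratio was not tested either. Slc22a27 and Slc47a2 had 0 UMIs in the 60 min library as well, and no fold is given for them.

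Of the 30 listed genes, 7 had their highest mean level outside the proximal tubule, which none of the 7 transporters did in the classes compared. Slco1a4, Slco2a1 and Abcc4 were highest in endothelial-gated cells, at 19.0, 8.27 and 48.1 CPM, and Abcb1a and Abcb1b, which encode P-glycoproteins, in leukocyte-gated cells, at 4.80 and 31.7 CPM. Slc2a9, a urate carrier gene, was highest in distal nephron-gated cells, at 19.4 CPM. Slco2b1 was highest in stromal-gated cells, at 131 CPM, a class of 16, 2 and 25 cells. Hnf4a, the gene of a transcription factor known to act on tubule genes, was at 0.881 of the control at 15 min and at 1.06 at 60 min in proximal tubule-gated cells.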

How the data were processed

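Kidney and tumor cells were profiled on the 10x Chromium system. Per the submitters' processing notes and the study's methods, the authors used Cell Ranger 3.1.0 and mm10, joined the libraries of a tissue with an aggregation step that evens out read depth, and deposited UMI counts, whole numbers per gene and cell, before their own filters. Depth was thereby partly equalised before deposit. Libraries were identified by the number in the cell barcode and the order given with the labels.

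Cells were kept at 200 to 3000 genes and at most 50% mitochondrial UMIs, as in the study's methods, and doublets were removed only through the gene limit. Counts were summed over gated cells and scaled to CPM with Python 3.11.15, numpy 2.4.6, scipy 1.17.1 and pandas 2.3.3. The script was tested on simulated data. Sums carry exact Poisson intervals, shares exact binomial (Clopper-Pearson) intervals and ratios exact conditional intervals at 95%. A level of 0 was given the floor of 3 counts per cell group and library. Cells thinned to 1500 UMIs used 1 fixed seed.

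All 7 transporters were named, and the listed carriers were named when at least 1.5-fold different between libraries or highest outside the proximal tubule. The transporters, lists and thresholds were chosen with earlier results of these data known. Alternatives were mitochondrial limits, gate stringency, segment limits, equal weight per cell, non-mitochondrial totals, thinning and the gene filter. The comparisons within segments, of leukocytes with myeloid and lymphoid markers and of cells over the gene limit were added after values were seen. Positions are those of GRCm38.p6. Some genes of the lists and a promoter search are not reported here, and the counts over the lists include these genes.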

Additional observations from a re-analysis of the deposited data

Results flagged for a closer look

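Slc13a3 also had UMIs in the mammary tumor libraries, which no kidney comparison used and which are not known as a tissue of renal carriers. The highest library, the 60 min platform interval, held 569 UMIs among 97006183, or 5.87 CPM [5.39 to 6.37], the control 297 UMIs (3.28 CPM) and the 15 min interval 310 UMIs (3.06 CPM). These levels were above the floor of 3 counts, which is 0.0309 to 0.0332 CPM in these libraries. Of the other 6 transporters, Slc22a30 had 2 UMIs in the 15 min tumor library, and the rest were at 0 UMIs in all 3. The source of the Slc13a3 UMIs was not tested.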

How the results depend on the processing

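With 1 library per condition, no replicate could be left out. No paired analysis was possible because each condition was a single library. At 15 min the count of transporters called, 4 as reported, was 2 with a gate of at least 10 marker UMIs and 2 after thinning, where Slc22a6 and Slc22a8 fell under the fold, 3 with cells weighted equally and at a gate purity of 90%, where Slc22a8 did, 5 without the upper limits, 5 at a mitochondrial share of at most 20%, where Slc22a8 was lost and Slc22a30 (1.67) and Slco1a1 (1.79) came in, and 6 on non-mitochondrial UMIs. The share of all genes called higher at 15 min, 2.98% as reported, moved as well. It was 1.02% with the gate of at least 10 marker UMIs, 3.47% after thinning, 1.93% with cells weighted equally and 2.28% at the 90% purity. Without the upper limits it was 7.60%, at the 20% limit 5.92% and on non-mitochondrial UMIs 6.66%. At 60 min the count, 1 as reported, was 0 with cells weighted equally, without the upper gene and mitochondrial limits, at a mitochondrial share of at most 20% and with the gate of at least 10 marker UMIs, and the gene concerned, Slc22a7, then had ratios between 1.37 and 1.498. In these settings, in the same order, 5.99, 5.52, 6.15 and 5.17% of all genes were called higher. The median log2 ratio at 15 min, 0.59 as reported, was 0.73 on non-mitochondrial UMIs, 0.70 without the limits, 0.77 at the 20% limit and 0.51 with the stricter gate. At 60 min, 0.07 as reported, it was 0.20 at the 20% limit and -0.016 with the stricter gate. The share of transporter UMIs in proximal tubule-gated cells, pooled over the kidney libraries and 97.3% as reported, was 96.8% without the limits, 95.6% at the 20% limit, 96.2% at a gate purity of 90%, 95.8% with the stricter gate and 96.6% after thinning. The causes were not tested. Over these settings the ratio at 15 min of every transporter stayed above 1 (lowest 1.07, Slc13a3), while Slc22a6 at 60 min ran from 0.847 to 1.07. At a segment purity of 75%, with at least 2 segment UMIs and on non-mitochondrial UMIs, 6 of the 7 transporters were highest in S3-gated cells, a count not made over all genes. Over all genes with a UMI, 13.6% were called higher and 18.4% lower at 15 min and 28.4 and 7.33% at 60 min.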

Other observations

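Over all proximal tubule-gated cells, Slc22a30 differed from the other transporters in the cells removed by the upper gene limit. This was looked at after its values had been seen. Proximal tubule-gated cells with over 3000 genes numbered 1250, 2613 and 1858 in the control, 15 min and 60 min libraries and had medians of 19263.5, 17561 and 18548.5 UMIs and of 4.30, 13.1 and 7.56% mitochondrial UMIs. In S1-gated cells Slc22a30 stood at 131, 222 and 113 CPM over the limit against 50.8, 65.9 and 75.9 CPM in kept cells, ratios of 2.58 [2.16 to 3.097], 3.36 [3.12 to 3.63] and 1.49 [1.33 to 1.66]. In mixed cells its ratios were 1.27, 2.24 and 1.02 and in S3-gated cells 1.03, 1.82 and 1.31. Its paralog Slc22a28 had ratios of 1.97, 2.10 and 1.33 in S1-gated cells. Over all proximal tubule-gated cells the ratio of Slc22a30 was 1.34, 1.93 and 1.25, and those of the other 6 transporters were all at or below 1.00, with Slc22a6 at 0.706, 0.694 and 0.738, Slco1a1 at 0.658, 0.553 and 0.610 and Slc22a7 at 0.603, 0.415 and 0.522. The gene limit therefore removed cells in which these transporters stood at different levels, and the part of cell type, doublets and depth in this was not tested.

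Slc13a3 was also found in leukocyte-gated cells, at 7.58, 4.30 and 7.76% of its proximal tubule level in the control, 15 min and 60 min libraries. The 15 min value rests on 16 UMIs [2.46 to 6.99%]. It was close to the 4.42% of endothelial-gated cells of that library, the comparison level used above. A split of the leukocyte-gated cells by myeloid and lymphoid markers was made after these values were seen. Slc13a3 stood at 12.2 CPM [9.68 to 15.1], 14.8 CPM [7.88 to 25.3] and 12.4 CPM [10.4 to 14.6] in cells with myeloid markers and at 1.41, 1.91 and 4.97 CPM in cells with lymphoid markers. Its share of all UMIs of the 7 transporters was 38.1% [31.6 to 45.0%], 17.6% [9.70 to 28.2%] and 32.4% [27.9 to 37.1%] in the former, against 7.96, 6.21 and 8.52% in proximal tubule-gated cells, 15.0, 9.47 and 12.5% in endothelial-gated cells, 7.55, 22.2 [6.41 to 47.6%] and 13.2% in distal nephron-gated cells, of which the second rests on 18 UMIs, and 5.36, 5.26 and 14.5% in cells with lymphoid markers.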
